A study of Mus musculus with 8 samples.

Results

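The subject is the change that all-trans retinoic acid (ATRA) made when it was added to interleukin-13 (IL-13) in RAW264.7, an established mouse line of macrophage character. It rests on 4 of the 8 arrays of the study, chosen by their treatment labels: 2 arrays of cells given IL-13 with ATRA and 2 arrays of cells given IL-13 alone. Each pair has 1 array at 12 h and 1 array at 24 h, and the arrays were compared within a time. The other 4 arrays are untreated control cells and cells given ATRA alone, at the same times. The labels call IL-13 cells M2 macrophages, cells given both agents M2 polarization suppressed, and control and ATRA cells unpolarized. They give no dose and no statement on whether the arrays came from separate cultures. Each treatment has 1 array at each time. A p-value therefore sets a difference against how far the treatment differences of these arrays varied between the 2 times, a spread that may be technical. Slide 1 held the 12 h arrays and slide 2 the 24 h arrays. Time therefore cannot be told apart from slide, but each pair that is compared lies within 1 slide. On the 4 arrays 54.1% to 61.4% of the probes were well above background and 0 were saturated, and the 75th percentile of signal was 431 (IL-13) and 445 (both) at 12 h and 713 (IL-13) and 508 (both) at 24 h.

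The cells carried the RNA of macrophages. All 8 defining macrophage markers looked for (Csf1r, Adgre1, Cd68, Itgam, Spi1, Lyz2, Fcgr1 and Ptprc) were well above background on each of the 4 arrays. The log2 of their summed signal was 18.14 (12 h) and 17.75 (24 h) with IL-13 and 17.97 and 17.78 with both agents. Sums of the other markers below are given the same way, and the brightest markers weigh most in them. Of 4 epithelial markers 0 were well above background on any of the 4 arrays, and of 6 fibroblast markers 1 was. Of 6 T cell markers 3 or 4 were well above background. The log2 of their summed signal was 7.55 to 7.89, no higher with both agents at 12 h (7.58 against 7.89) and slightly higher at 24 h (7.76 against 7.55). Of 5 B cell markers 1 or 2 were well above background, and their sum was 4.91 against 5.53 at 12 h and 6.86 against 4.83 at 24 h. Of 5 neutrophil markers on the array 2 or 3 were well above background, with S100a8 and Mpo on each of the 4 arrays. They summed to 8.64 against 8.81 at 12 h and 7.07 against 7.68 at 24 h. Of 4 dendritic cell markers 2 or 3 were well above background, with Zbtb46 and Xcr1 on each array. Their sum was 6.16 against 6.39 at 12 h and 6.23 against 6.42 at 24 h. Of 4 endothelial markers 1 was well above background on each array (Kdr). The part of these low signals in the differences was not tested. In bulk RNA such as this, fewer cells with a transcript and less of it per cell cannot be told apart.

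ATRA enters cells and binds the retinoic acid receptors, which sit on DNA as partners of the retinoid X receptors and switch to activation when the ligand binds. IL-13 signals through the receptor chains Il4ra and Il13ra1 to the transcription factor Stat6, which turns on genes of alternative (M2) activation such as Arg1. Arg1 and Tgm2 are known markers of that state in mouse macrophages, and Tgm2 and Rarb are known targets of retinoic acid.

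Adding ATRA to IL-13 raised the arginase Arg1, the transglutaminase Tgm2 and the thromboxane pathway enzymes Ptgs1 and Tbxas1, and it lowered the cytokine Il10, the IL-13 receptors Il13ra1 and Il13ra2, the lymphatic growth factor Vegfc and the transcription factor Myc. Of 49 interferon-stimulated genes 47 were lower in sign at both times. Of the 15454 genes tested, 178 rose (1.15%) and 236 fell (1.53%), together 414 genes (2.68%), at an adjusted p under 0.05 by limma, a linear model fitted over all genes and all 8 arrays. An unadjusted p under 0.05 was found for 2959 genes. Over all genes 47.4% were higher in sign and 52.6% lower. These shares and the 2.68% called are the background for the counts in gene lists, which were chosen with earlier results of these data known. Levels are given as log2 signal after each array was scaled by its 75th percentile, and differences as both agents minus IL-13, so that 1 log2 unit is 2-fold. Where a pair of values is given for a treatment or a probe, the 12 h value stands before the 24 h value.

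The called genes that rose did so by a median of 1.41 log2 units and those that fell by a median of 1.26 in size. At least 4-fold differences were found for 61 genes that rose and 45 that fell, and at least 16-fold differences for 17 and 4. For 28 of the genes that rose the IL-13 cells were not well above background on either array, and for 40 of those that fell the cells with both agents were not. A gene that passed the filter on dim probes only through the treatment where it is high had to differ, so the p-values of such genes add little to their levels. All 414 called genes had the same sign at both times, which the test favours, since disagreement between the times enters its error. Without any test, 176 genes differed by at least 2-fold at both times in the direction of a rise (1.14% of those tested) and 250 in the direction of a fall (1.62%). The number of calls depended on single arrays. It was 16 without the 24 h array of both agents, 97 without the 12 h array of both agents, 59 without the 24 h IL-13 array and 553 without the 12 h IL-13 array. It was 121 without either control array and 155 without either ATRA array. Of 114 called genes chosen to be named, 7 kept their call in each of the 8 refits that left out an array and 22 lost it in every such refit, and all but 7 lost it without the 24 h array of both agents.

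**Figure D1:**
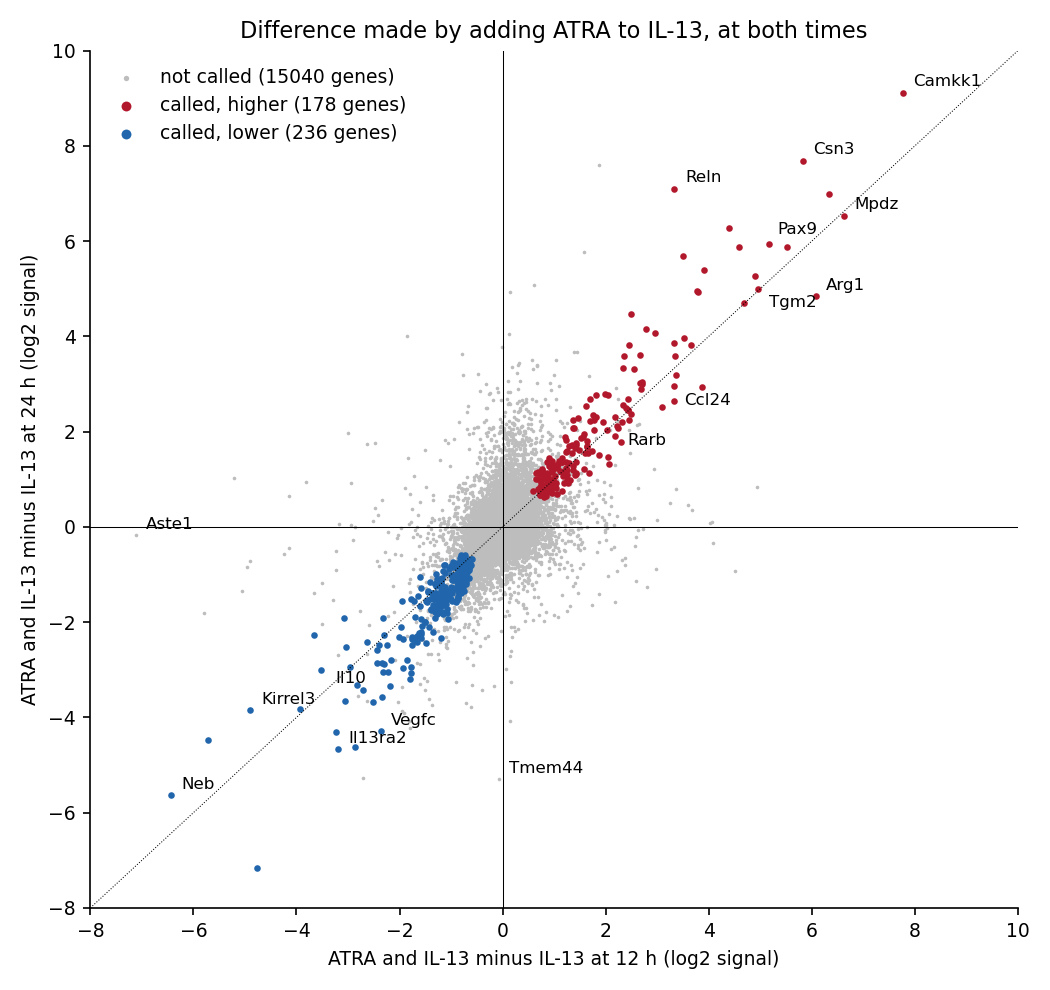
Difference between cells given both agents and cells given IL-13 alone at 12 h (x axis) and 24 h (y axis) in log2 signal, 1 point per gene, with the 178 genes called higher in red, the 236 called lower in blue and the dotted line marking equal differences. The called genes lie along the dotted line, from Neb at the lower left (−6.43 and −5.63) to Camkk1 at the upper right (7.77 and 9.12), while Aste1 and Tmem44 lie far out at 1 time only.

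Arg1, which splits arginine into ornithine and urea and is the best known enzyme of alternatively activated mouse macrophages, stood at 7.49 (12 h) and 9.0 (24 h) log2 units with IL-13 and at 13.57 and 13.84 with both agents. Both arrays of the combination were above both IL-13 arrays by more than the 2 IL-13 arrays differed from each other. The rise was 6.08 at 12 h and 4.84 at 24 h, or 5.46 ± 0.50 (SE) over both times, a 44.1-fold change (adjusted p = 0.0161, limma). In control cells Arg1 was not well above background (1.56 and 0.77), and ATRA alone gave 4.12 and 4.50, so its levels with both agents were the highest of the 8 arrays. The signal comes from 1 probe whose 60 bases lie without a gap in an exon of Arg1, at chr10:24636194-24636253 on the minus strand of mm9, and it is shown since the change of this gene rests on it alone:
Arg1 probe: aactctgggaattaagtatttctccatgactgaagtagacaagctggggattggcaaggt

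Tgm2, a crosslinking enzyme that is a known target of retinoic acid and a marker of M2 macrophages, was 9.38 and 9.49 with IL-13 and 14.35 and 14.49 with both agents. The differences at 12 h and 24 h were nearly equal (4.97 and 5.01), and the fitted rise was 4.99 ± 0.39, or 31.7-fold (adjusted p = 0.0132, limma). The 2 other probes of Tgm2 gave 4.48 and 4.60 at 12 h and 4.71 and 4.67 at 24 h. In control cells Tgm2 was 9.47 and 8.42, and ATRA alone gave 13.12 and 13.78.

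Il10, an anti-inflammatory cytokine, moved the other way. It was 6.51 and 6.32 with IL-13 and 4.07 and 3.47 with both agents, so the pairs did not overlap and the lower pair was below the control levels of 4.69 and 4.99. The fall was 2.43 at 12 h and 2.85 at 24 h, and the fitted difference was −2.64 ± 0.22, or 6.24-fold lower (adjusted p = 0.0149, limma). Arg1 and Il10 lost their calls in the refit without the 24 h array of both agents (adjusted p = 0.114 and 0.0677, limma), and Tgm2 did too (0.0905).

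**Figure D2:**
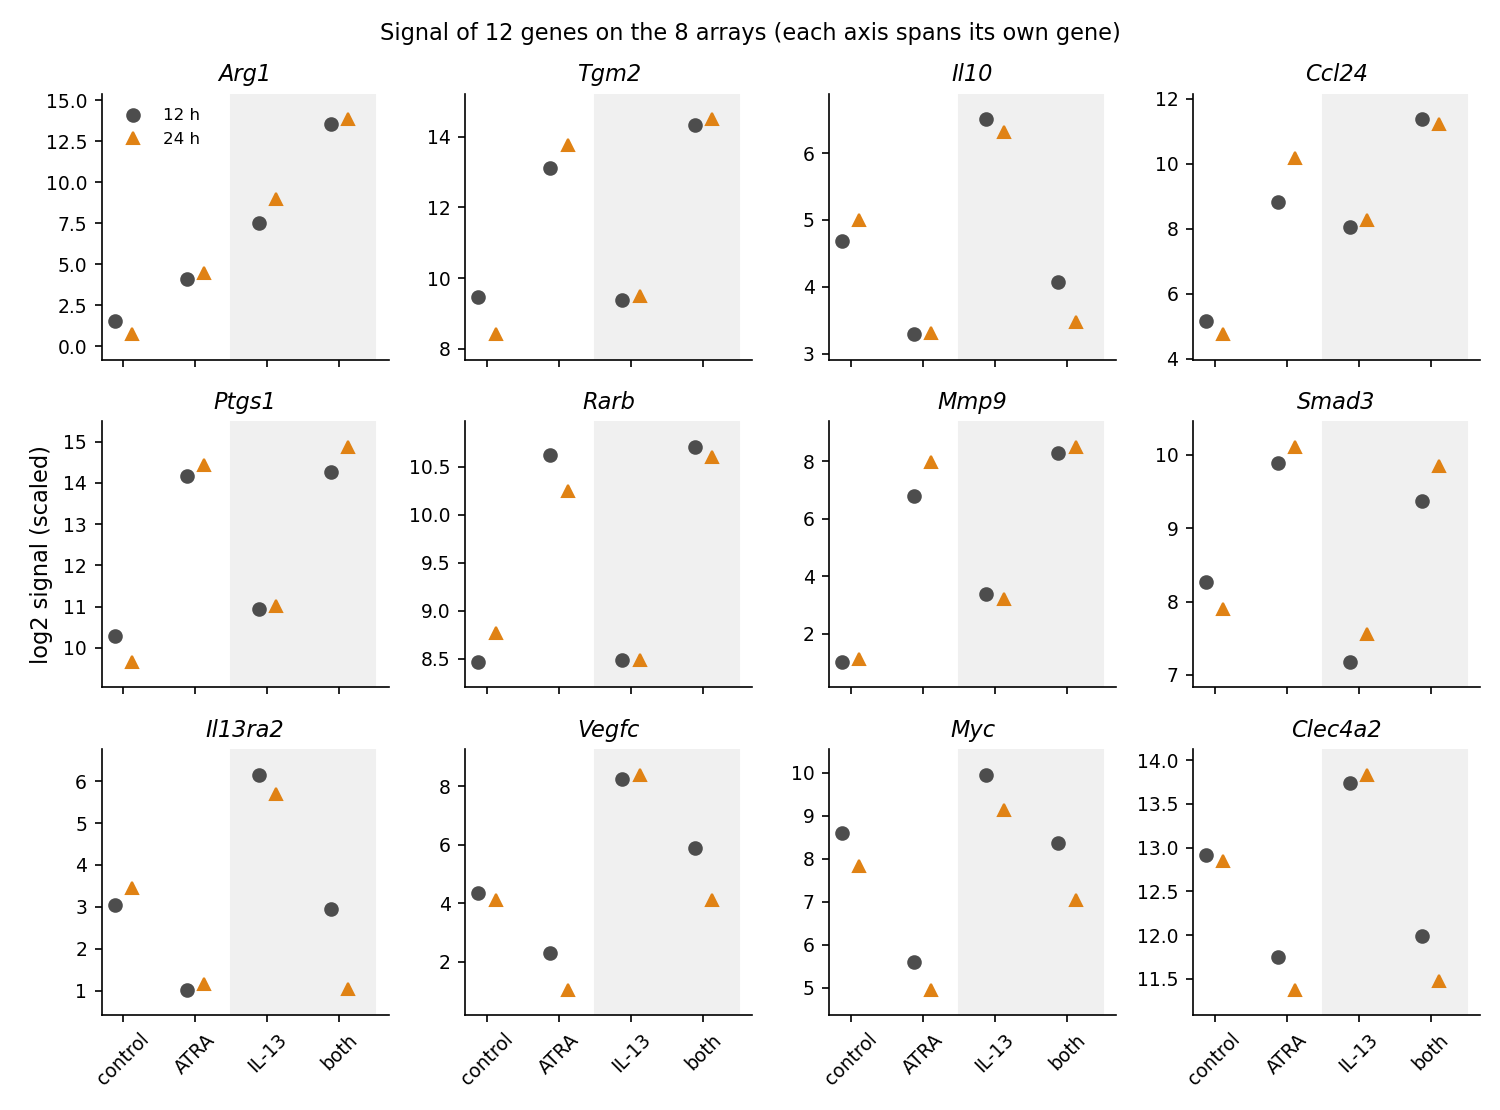
Scaled log2 signal (y axis, a separate range for each gene) of 12 genes on the 8 arrays, by treatment (x axis), with circles for 12 h and triangles for 24 h and the 4 compared arrays on grey. Arg1 stepped up with each agent and was highest with both, Tgm2, Ptgs1, Rarb and Mmp9 were high wherever ATRA was present, and Il10, Il13ra2 and Vegfc were highest with IL-13 alone.

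The markers of alternative activation did not move as one. Of 30 tested markers 5 rose and 2 fell (23.33% called, against 2.68% of all genes). Their median difference was −0.10 against −0.016 over all genes, and 12 were higher and 18 lower in sign. Besides Arg1 and Tgm2, the genes that rose were Ptgs1 (cyclooxygenase 1), the scavenger receptor Stab1 and the eosinophil-attracting chemokine Ccl24, and those that fell were Il10 and Myc. Ccl24 was 8.03 and 8.26 with IL-13 and 11.36 and 11.22 with both agents, a rise of 3.15 ± 0.42 (adjusted p = 0.0326, limma). In control cells it was 5.15 and 4.76, so the level with both agents was above that with either agent alone (8.83 and 10.19 with ATRA). Stab1 rose by 3.49 ± 0.56 (adjusted p = 0.0474), from 8.17 and 6.02 to 10.66 and 10.50, and its second probe gave 2.25 at 12 h and 1.71 at 24 h.

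The other markers of this list did not pass. The mannose receptor Mrc1 had a difference of −1.65 (adjusted p = 0.098), the interleukin-1 antagonist Il1rn −1.08 (0.14), the transcription factors Klf4 −1.05 (0.11), Egr2 −0.74 (0.26) and Irf4 −0.61 (0.12), and the lectin Chil3 −0.44 (0.58). Batf3 (0.78, adjusted p = 0.069) and the ribonuclease Rnase2a (2.47, adjusted p = 0.14) were higher in sign. By size alone, 8 of the 30 markers differed at 12 h by at least 2-fold upwards and 3 downwards, and at 24 h 6 and 9 did. Without the 24 h array of both agents the adjusted p of Ccl24 was 0.159 and that of Stab1 0.252, and Stab1 also lost its call under quantile normalization and with the authors' deposited log2 values.

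Of 23 genes of arginine and polyamine metabolism Arg1 alone passed the test (4.35% called, against 2.68% of all genes). The next in size were Azin2, an inhibitor of antizyme (1.23, adjusted p = 0.069, limma), and Ass1, an enzyme of arginine synthesis (−0.88, 0.21). The amidinotransferase Gatm (0.75, 0.054) and the arginine transporter Slc7a2 (0.75, 0.48) followed. The ornithine decarboxylase Odc1 (0.03) and the mitochondrial arginase Arg2 (0.05) were close to 0. The median of the list was 0.13.

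Both receptor chains that bind IL-13 directly fell. Of 23 tested genes in a list of these receptors with their JAK kinases, STAT factors and inhibitors, 0 rose and 3 fell, with a median of −0.12. This is 13.04% called, against 2.68% of all genes. Il13ra2, which binds IL-13 and is known as its decoy receptor, was 6.14 and 5.70 with IL-13 and 2.96 and 1.04 with both agents, where it was not well above background on either array. It was at least 6.33-fold lower (adjusted p = 0.0366, limma). Its probe passed the filter on dim probes through the IL-13 arrays alone, so this p-value adds little to the levels. Il13ra1, the signalling chain for IL-13, was 9.06 and 9.20 with IL-13 and 7.95 and 7.94 with both agents, a fall of 1.19 ± 0.16 (adjusted p = 0.034), and its second probe gave −1.28 and −1.40. The shared chain Il4ra had a difference of 0.96 (adjusted p = 0.079), and Stat6 (−0.16, 0.5), Stat3 (0.01) and Socs3 (0.02) were near 0. Stat2, which also belongs to the interferon genes, fell by 0.67 (adjusted p = 0.0458). Without 1 array the largest adjusted p was 0.143 for Il13ra2 (the 24 h IL-13 array left out), 0.211 for Il13ra1 and 0.243 for Stat2 (the 24 h array of both agents left out).

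Genes of retinoid signalling included those that respond to ATRA in many cells. Of 19 tested genes 3 rose and 0 fell (15.79% called, against 2.68% of all genes), and the median was 0.16. Rarb, the beta form of the retinoic acid receptor, was 8.49 and 8.48 with IL-13 and 10.71 and 10.60 with both agents. The rise was 2.17 ± 0.18, or 4.5-fold (adjusted p = 0.0144, limma), and a second probe gave 2.72 and 2.58. Nrip1, a corepressor that binds ligand-bound nuclear receptors, rose by 2.26 ± 0.15 (adjusted p = 0.00731), and the retinaldehyde reductase Dhrs3, which turns retinaldehyde back into retinol, rose by 1.57 ± 0.19 (adjusted p = 0.0275). The receptors Rarg (−0.35, adjusted p = 0.26) and Rxra (0.30, 0.57) and the retinol dehydrogenase Rdh10 (0.04, 0.94) did not pass. Rara had a difference of −0.80 at 12 h and 3.63 at 24 h (adjusted p = 0.64). Without the 24 h array of both agents the adjusted p of Rarb was 0.0923, of Nrip1 0.0714 and of Dhrs3 0.182.

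The promoter of Rarb is shown since it holds a known kind of binding site for retinoic acid receptors, a direct repeat of 2 hexamers with 5 bases between them. RefSeq gives the 250 bases before its start at chr14:16575477-16575726 on the minus strand of GRCm38.p6. The capitals mark the repeat, at bases −53 to −37 from the start:
Rarb promoter: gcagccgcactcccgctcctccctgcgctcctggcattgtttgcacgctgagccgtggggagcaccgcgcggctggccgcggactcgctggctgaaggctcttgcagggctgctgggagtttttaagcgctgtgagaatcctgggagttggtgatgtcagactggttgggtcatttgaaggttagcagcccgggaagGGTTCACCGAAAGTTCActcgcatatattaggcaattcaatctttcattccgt

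The search took any pair of hexamers in 1 direction with 5 bases between them, on both strands, where a hexamer is AGGTCA or that word with G as the first base, T as the third base or both. Such a repeat lay in these 250 bases, before any of the listed starts of a gene, for 28 of the 27025 genes listed by RefSeq (0.104%). Of the genes that rose, 115 of 178 had an entry and Rarb was the 1 that held the repeat (0.87%), and of the genes that fell 156 of 236 had an entry and 0 held it. Repeats with 1 or 2 bases between the hexamers were found in 53 (0.196%) and 55 (0.204%) of the 27025 genes and in 0 of the called genes. A match describes letters only, and its absence says only that these letters are not in these windows.

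Several of the largest rises were in genes that IL-13 cells hardly expressed. Camkk1, a kinase that activates other calmodulin-dependent kinases, was 1.40 and 1.35 with IL-13, not well above background, and 9.17 and 10.47 with both agents. It was at least 103.5-fold higher (adjusted p = 0.00304, limma) and kept its call without each of the 8 arrays in turn, but not when the 4 compared arrays were fitted alone (0.0515). The casein Csn3 exceeded its IL-13 level by at least 76.0-fold (adjusted p = 0.0146), while its second probe gave 0.59 at 12 h and 3.49 at 24 h. Its call was lost without the 24 h array of both agents (0.0923), as was that of Mlxipl (0.0532). The lipogenic transcription factor Mlxipl (9.36 and 8.80 with both agents) and the collagen Col14a1 (7.63 and 7.84) were called higher and were not well above background with IL-13 on the probes used, so no fold is given. Their second probes gave differences of 3.58 and 1.75 for Mlxipl and −6.13 and 0.06 for Col14a1.

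Other large rises were those of the gelatinase Mmp9 (5.08 ± 0.33, adjusted p = 0.00731, limma), with 5.83 and 5.76 on a second probe, and of Slco2b1, a carrier of organic anions, which was higher by at least 8.91-fold (adjusted p = 0.0256). Fam20a, the partner of a kinase of the secretory pathway, exceeded its IL-13 level by at least 11.9-fold (adjusted p = 0.00304), with 4.79 and 4.65 on a second probe. The zinc-finger repressor Gfi1, which acts in granulocyte development, rose by 4.37 ± 0.30 (adjusted p = 0.00922, limma). The secreted glycoprotein Reln exceeded its IL-13 level by at least 8.02-fold (adjusted p = 0.0474, limma). The probe of Reln passed the filter on dim probes through the arrays of both agents alone. The heparan sulfate enzyme Ndst1 rose by 5.24 ± 0.39 (adjusted p = 0.0116) on the probe used, but its 3 other probes gave 0.08, 2.62 and 3.88 at 12 h and 0.51, 3.15 and 5.24 at 24 h. The call of Fam20a, like those of Camkk1 and Col14a1, held without each array in turn. The largest adjusted p without 1 array was 0.0532 for Gfi1, 0.0654 for Mmp9 and 0.0759 for Ndst1 (the 24 h array of both agents left out) and 0.111 for Slco2b1 and 0.161 for Reln (the 24 h IL-13 array left out).

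Several of the largest falls were of genes that were clearly measured with IL-13 and near background with both agents. Neb, which encodes the muscle protein nebulin, was 7.61 and 7.46 with IL-13 and 1.18 and 1.83 with both agents, at least 19.4-fold lower (adjusted p = 0.0196, limma). The probe passed the filter on dim probes through the IL-13 arrays alone. The fall rests on 1 of the 6 probes of Neb, since the other 5 did not pass that filter and gave differences of −0.35 to 0.54 at 12 h and −2.78 to 1.30 at 24 h. The adhesion molecule Kirrel3 was at least 8.49-fold lower (adjusted p = 0.0161), with −2.34 and −1.74 on a second probe.

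Rgs16, which speeds the turning off of G proteins, was 9.60 and 8.56 with IL-13 and 6.37 and 4.26 with both agents, a difference of −3.76 ± 0.40 (adjusted p = 0.0221, limma). Vegfc, a growth factor of lymphatic vessels, was 8.25 and 8.39 with IL-13 and 5.89 and 4.10 with both agents, a difference of −3.32 ± 0.48 (adjusted p = 0.0375). In control cells Vegfc was 4.35 and 4.12, so at 24 h its level with both agents was about that of the control. The transcription factor Zbtb32 (−3.09 ± 0.50), the repressor Gfi1b (at least 7.68-fold lower) and the vasoconstrictor peptide Edn1 (−1.76 ± 0.20) fell too. The probe of Edn1 passed the filter on dim probes through the IL-13 arrays alone. Without the 24 h array of both agents the adjusted p of Kirrel3 was 0.0664, of Gfi1b 0.0905, of Edn1 0.161, of Vegfc 0.172 and of Zbtb32 0.271. Zbtb32 also lost its call under quantile normalization (0.0553), with the authors' deposited log2 values (0.0561) and with the mean over probes (0.0526), and without the 24 h IL-13 array that of Neb was 0.0923 and of Rgs16 0.0964.

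**Figure D3:**
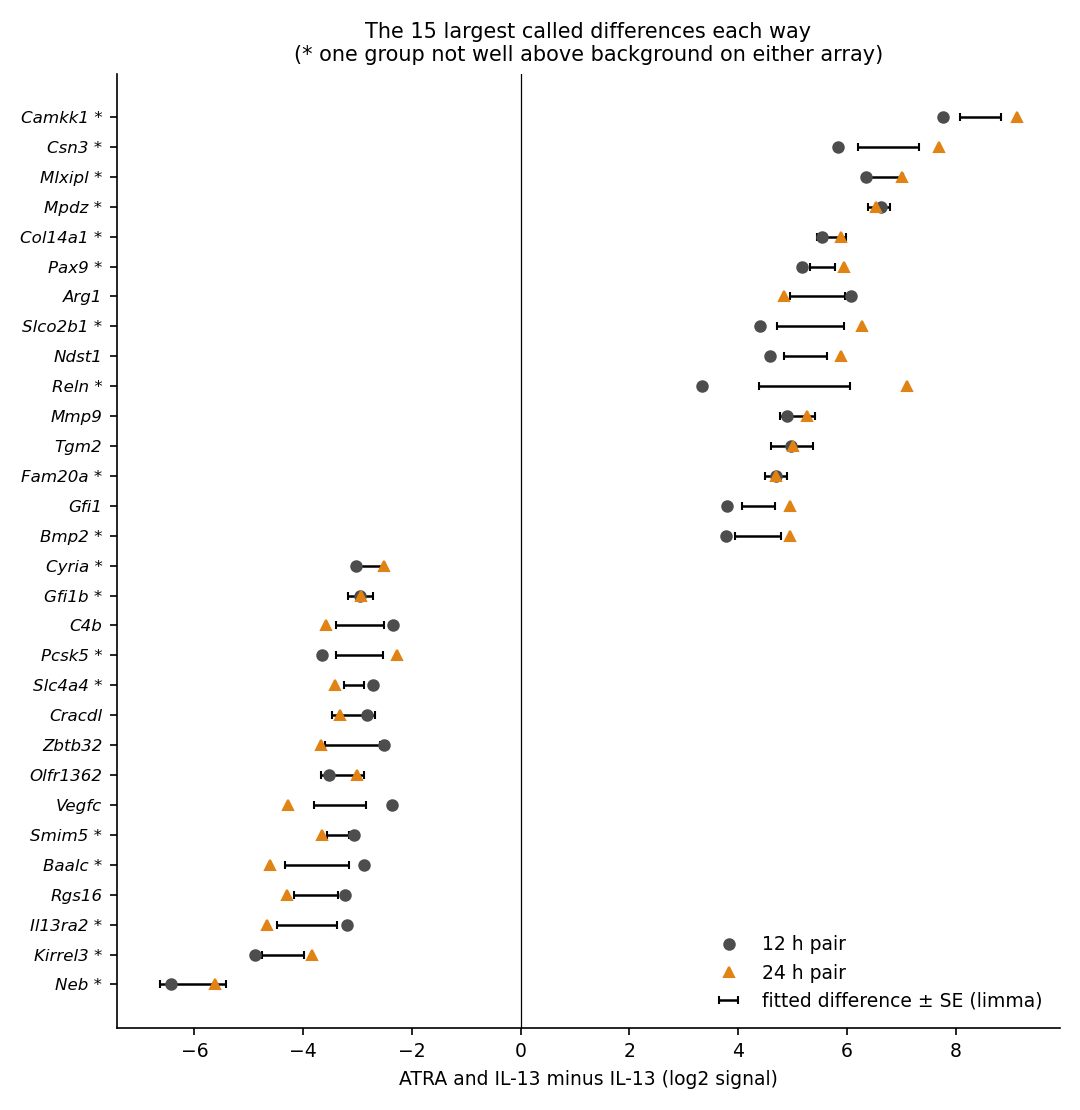
The 15 genes that rose most and the 15 that fell most among the called genes with a symbol other than a clone or transcript name, with the difference between both agents and IL-13 in log2 signal on the x axis, circles for the 12 h pair, triangles for the 24 h pair and bars for the fitted value ± SE. An asterisk marks genes for which 1 group was not well above background on either array, where the bar is no bound. The 12 h and 24 h values lie on the same side of 0 for every gene drawn, closest together for Fam20a, Tgm2, Mpdz and Gfi1b and farthest apart for Reln (3.34 and 7.10).

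Consecutive enzymes of thromboxane synthesis rose. Ptgs1 was 10.95 and 11.01 with IL-13 and 14.27 and 14.87 with both agents, a rise of 3.59 ± 0.29 (adjusted p = 0.0134, limma). Tbxas1, the thromboxane synthase that works downstream of it, was 8.76 and 9.18 with IL-13 and 11.85 and 11.69 with both agents, a rise of 2.80 ± 0.17 (adjusted p = 0.00663) with 3.11 and 2.45 on a second probe. These were 2 of 22 tested prostanoid and leukotriene genes (9.09% called, against 2.68% of all genes). In this list 0 were called lower, and its median was 0.032. Refitted without the 24 h array of both agents, the adjusted p was 0.0759 for Ptgs1 and 0.0599 for Tbxas1.

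In the TGF-beta and BMP pathway 3 of 32 genes rose and 1 fell (12.5% called, against 2.68% of all genes). The ligand Bmp2 was not well above background with IL-13 (1.68 and 1.09) and was 5.45 and 6.04 with both agents, at least 6.13-fold higher (adjusted p = 0.0173, limma). Ltbp3, which binds latent TGF-beta, rose by 3.74 ± 0.13 (adjusted p = 0.00297) on the probe used, and a second probe that was well above background on all 8 arrays gave −0.03 and −0.16. The signal transducer Smad3 was 7.18 and 7.55 with IL-13 and 9.37 and 9.85 with both agents, a rise of 2.24 ± 0.22 (adjusted p = 0.0192) with 2.0 and 2.30 on a second probe. The inhibitor of differentiation Id2, a target of BMP signals, fell by 0.76 (adjusted p = 0.034). In the matrix list 4 of 22 genes rose and 1 fell (22.73% called). Those that rose were Col14a1, Tgm2, the basement membrane collagen Col4a2 and the collagen-modifying enzyme P4ha2. The probe of Col4a2 passed the filter on dim probes through the arrays of both agents alone. Vim, which encodes the filament protein vimentin, fell by 1.49 (adjusted p = 0.0158, limma). When the 24 h array of both agents was left out the adjusted p was 0.116 for Vim, 0.125 for Bmp2, 0.126 for Smad3, 0.208 for P4ha2, 0.232 for Col4a2 and 0.234 for Id2, while Ltbp3 kept its call in each refit without 1 array.

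Chemokines moved in both directions. Of 16 tested 4 rose and 1 fell (31.25% called, against 2.68% of all genes), with a median of −0.15. Besides Ccl24 these were Cxcl14 (2.16 ± 0.18, adjusted p = 0.0149, limma), Ccl12 (2.06 ± 0.25, 0.0273) and Ccl6 (1.76 ± 0.20, 0.0256), and the scavenging ligand Cxcl16 fell by 1.49 (0.0476). Of 33 cytokines and growth factors 2 rose (Bmp2 and the angiogenic factor Vegfa, 1.12 ± 0.11) and 3 fell (Il10, Vegfc and Edn1), with 15.15% called. Vegfa and Vegfc thus moved in opposite directions, with Vegfa at 8.25 and 8.28 with IL-13 and at 9.42 and 9.35 with both agents. In refits without the 24 h array of both agents the calls of these chemokines were lost, with adjusted p from 0.0599 (Ccl6) to 0.209 (Cxcl16), and that of Vegfa too (0.117). The calls of Ccl6 and Cxcl16 were lost in each of the 8 refits that left out an array, and Cxcl16 also lost its call with the authors' deposited log2 values.

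Receptors of immune recognition were lower in sign more often than higher, against 52.6% lower and 2.68% called over all genes. Lower in sign were 63.6% of C-type lectin receptors, 77.4% of Fc and paired immune receptors and 64.3% of MHC class II genes. The shares called were 13.64%, 12.9% and 7.14%. Of 22 C-type lectin receptors 0 rose and 3 fell, with 14 lower in sign and a median of −0.55. The 3 lie in 1 family: Clec4a2, an inhibitory receptor of dendritic cells and macrophages, was 13.74 and 13.83 with IL-13 and 11.99 and 11.48 with both agents (−2.05 ± 0.18, adjusted p = 0.0149, limma), Clec4b1 fell by 2.11 (0.0197) and Clec4n, which encodes dectin-2, a receptor for fungal mannans, fell by 2.33 (0.0336). Of 31 Fc and paired immune receptors Trem1, an amplifier of inflammatory signals, rose by 1.56 (0.0149), and 3 fell: the inhibitory receptors Pirb (−1.92 ± 0.18, 0.0161) and Cd300a (−1.76 ± 0.19, 0.0238) and the activating Fc receptor Fcgr3 (−1.18 ± 0.15, 0.0289). Of that list 24 were lower in sign, and its median was −0.43. The checkpoint receptor Havcr2 (TIM-3) fell by 1.76 (0.0255). Of 14 genes of MHC class II presentation 1 fell, the peptide exchange chain H2-DMb1 (−1.96 ± 0.32, 0.0499), which also lost its call under quantile normalization. Leaving out the 24 h array of both agents, the adjusted p of these genes lay between 0.0905 (Clec4a2) and 0.262 (H2-DMb1).

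Complement genes were split, with 14.29% called against 2.68% of all genes. Of 21 tested 2 rose, the anaphylatoxin receptor C5ar1 (6.58 and 6.21 with IL-13, 8.52 and 8.40 with both agents, 2.07 ± 0.14, adjusted p = 0.00922, limma) and Cd93 (1.67 ± 0.22, 0.0306), a glycoprotein of myeloid and endothelial cells, and the complement component C4b fell by 2.96 (0.0406). The subunits of C1q were all higher in sign, with C1qa at 2.25 (adjusted p = 0.19), C1qb at 2.07 (0.1) and C1qc at 2.16 (0.26), and none passed the test. Of 25 genes of the LXR and cholesterol efflux list 2 rose and 2 fell (16.0% called), with a median of 0.089. Besides Mlxipl the transporter Abca1 rose by 2.04 (0.0197, and 0.142 with time as a random block), while the sterol sensor Nr1h3 (LXR alpha) fell by 1.04 (0.0256) and Mylip, which marks the LDL receptor for degradation, fell by 1.53 (0.022). With the 24 h array of both agents left out, the adjusted p of C5ar1, Cd93, C4b, Abca1, Nr1h3 and Mylip lay between 0.0769 (C5ar1) and 0.229 (C4b).

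Interferon-stimulated genes, which interferon switches on for antiviral defence, were nearly all lower with both agents than with IL-13. Of 49 tested 0 rose and 6 fell (12.24% called, against 2.68% of all genes). In sign 47 were lower at 12 h and 47 at 24 h, and the median difference was −0.84, against −0.016 and 52.6% lower over all genes. At 12 h the list's median was −0.80, and at 24 h it was −0.81. Against control the list's median was −1.18 with ATRA alone and −0.85 with IL-13 alone, so lower levels with ATRA were also seen without IL-13. Genes of 1 pathway are not independent of each other. Ifit3, which blocks viral RNA translation with its partners, was 7.53 and 6.76 with IL-13 and 5.94 and 5.09 with both agents (−1.63 ± 0.23, adjusted p = 0.036, limma). Ifit1 was 7.71 and 7.13 with IL-13 and 6.29 and 5.61 with both agents (−1.47 ± 0.24, 0.0476). The others that fell were the GTPase Gbp3 (−1.41), the RNA sensor Oas2 (−1.16), Ifi204 (−0.89) and Stat2 (−0.67). Isg15 (−1.15, adjusted p = 0.27), Irf7 (−0.70, 0.42) and the cytokine Ifnb1 (−1.61, 0.24) were lower in sign without passing. None of the 6 calls held without the 24 h array of both agents. With normexp background correction the calls of Ifit1 (adjusted p = 0.0711, limma), Ifit3, Gbp3 and Stat2 were lost. With time as a random block those of Ifit1 (0.0693), Ifit3 and Oas2 were lost. Ifit1 also lost its call under quantile normalization (0.0535) and with the authors' deposited log2 values (0.0528).

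The promoters of Ifit1 and Ifit3 are shown since both genes fell and both hold the core of the known interferon response element. The search took GAAANNGAAA on both strands in the 250 bases before each start in the RefSeq table of GRCm38.p6. The windows are chr19:34640639-34640888 and chr19:34583279-34583528, both on the plus strand, and the capitals mark the matches, which start at bases −104 and −85 in Ifit1 and at bases −156 and −122 in Ifit3:
Ifit1 promoter: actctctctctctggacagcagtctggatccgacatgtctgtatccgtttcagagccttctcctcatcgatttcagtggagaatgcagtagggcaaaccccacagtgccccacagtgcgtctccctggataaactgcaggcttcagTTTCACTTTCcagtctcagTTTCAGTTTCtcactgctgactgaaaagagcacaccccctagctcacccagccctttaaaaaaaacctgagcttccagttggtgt
Ifit3 promoter: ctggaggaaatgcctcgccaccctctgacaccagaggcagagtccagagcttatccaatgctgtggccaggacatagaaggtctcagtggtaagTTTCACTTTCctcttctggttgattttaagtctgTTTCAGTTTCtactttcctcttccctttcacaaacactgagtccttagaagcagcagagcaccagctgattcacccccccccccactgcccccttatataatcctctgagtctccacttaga

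Among the tested interferon-stimulated genes 36 had a promoter entry and 15 of these held the element (41.7%), against 936 of 27025 genes in the table (3.46%). A gene was counted if the window before any of its listed starts held the element. Of the 6 that fell 4 had an entry (Gbp3, Ifit1, Ifit3 and Stat2) and all 4 held it in this sense. Gbp3 had 2 matches in the window chr3:142559794-142560043 and 0 in the window chr3:142560106-142560355. Among all genes that fell 11 of 156 held it (7.05%), and among those that rose 4 of 115 did (3.48%).

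Myc and some immediate early genes fell. Myc was 9.95 and 9.14 with IL-13 and 8.38 and 7.05 with both agents, a difference of −1.83 ± 0.19 (adjusted p = 0.0201, limma), and 2 other probes gave −1.51 and −1.07 at 12 h and −2.06 and −2.59 at 24 h. Fos, a subunit of AP-1, was 11.50 and 11.61 with IL-13 and 9.80 and 9.23 with both agents (−2.04 ± 0.18, 0.0153). The kinase phosphatase Dusp1 (−1.39 ± 0.10, 0.0116) and the stress gene Gadd45g (−1.21 ± 0.15, 0.0271) also fell, and another kinase phosphatase, Dusp6, rose by 1.11 (0.0441). Thus 1 of 39 genes of this list rose and 4 fell (12.82% called, against 2.68% of all genes, median −0.21). Without 1 array the largest adjusted p was 0.0926 for Myc (the 24 h IL-13 array left out) and, with the 24 h array of both agents left out, 0.0905 for Fos and for Dusp1, 0.159 for Gadd45g and 0.264 for Dusp6.

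Genes of osteoclast formation moved in both directions. Of 27 tested 3 rose and 4 fell (25.93% called, against 2.68% of all genes). Ocstamp (−2.47 ± 0.33, adjusted p = 0.034, limma) and Dcstamp (−2.03 ± 0.30, 0.0406), membrane proteins needed for fusion, and the transcription factors Fos and Mitf (−1.05 ± 0.14, 0.0326) fell. Car2, the carbonic anhydrase that supplies protons, was 13.58 and 13.76 with IL-13 and 15.35 and 15.79 with both agents (1.90 ± 0.13, 0.00841), and Mmp9 and Irf8, a brake on osteoclast formation (0.90 ± 0.14, 0.0458), rose as well. The cathepsin Ctsk (−1.51, 0.16) and the master regulator Nfatc1 (−0.29, 0.34) did not pass. The calls were lost without the 24 h array of both agents, with adjusted p of 0.0654 for Car2, 0.135 for Ocstamp, 0.189 for Dcstamp and 0.197 for Mitf, and that of Irf8 without the 12 h array of both agents (0.191).

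Several other groups held few or no called genes. Of 40 genes of the unfolded protein and integrated stress response 33 were higher in sign, with a median of 0.28, but 7.5% were called. The chaperone Hyou1 (0.83, adjusted p = 0.0453, limma) and the secreted hormone Stc2 (0.94, 0.0459) rose, and the stress sensor Atf6 fell (−0.71, 0.0474). A second probe of Hyou1 gave 0.12 and 0.35. None of the 3 calls held without the 24 h array of both agents (adjusted p of 0.27 to 0.305). The transducers Xbp1 (−0.01), Ddit3 (0.02) and Atf4 (0.09) were near 0. Of 27 sterol synthesis genes, 45 genes of fatty acid and lipid handling and 49 lysosomal genes 0 were called by limma, with medians of 0.10, −0.001 and −0.09. Of 60 cell cycle and replication genes 1 was called (1.67%), Ccng2, a cyclin linked to cell cycle arrest, which fell by 1.28 (0.0383). Its call was lost in every refit that left out an array. Of 19 markers of classical (M1) activation 0 were called, with 5 higher and 14 lower in sign and a median of −0.20, though 4 were at least 2-fold lower at both times (Gbp2, Il1b, Cxcl11 and Cxcl10, with −2.47 to −1.38 and adjusted p of 0.056 to 0.13) and 1 higher (Fpr2). Over the 52 lists, 98 of the 1192 tested genes were called (48 higher, 50 lower), which is 8.22% against 2.68% of all genes, for lists chosen with earlier results of these data known, and 316 called genes were in no list.

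**Figure D4:**
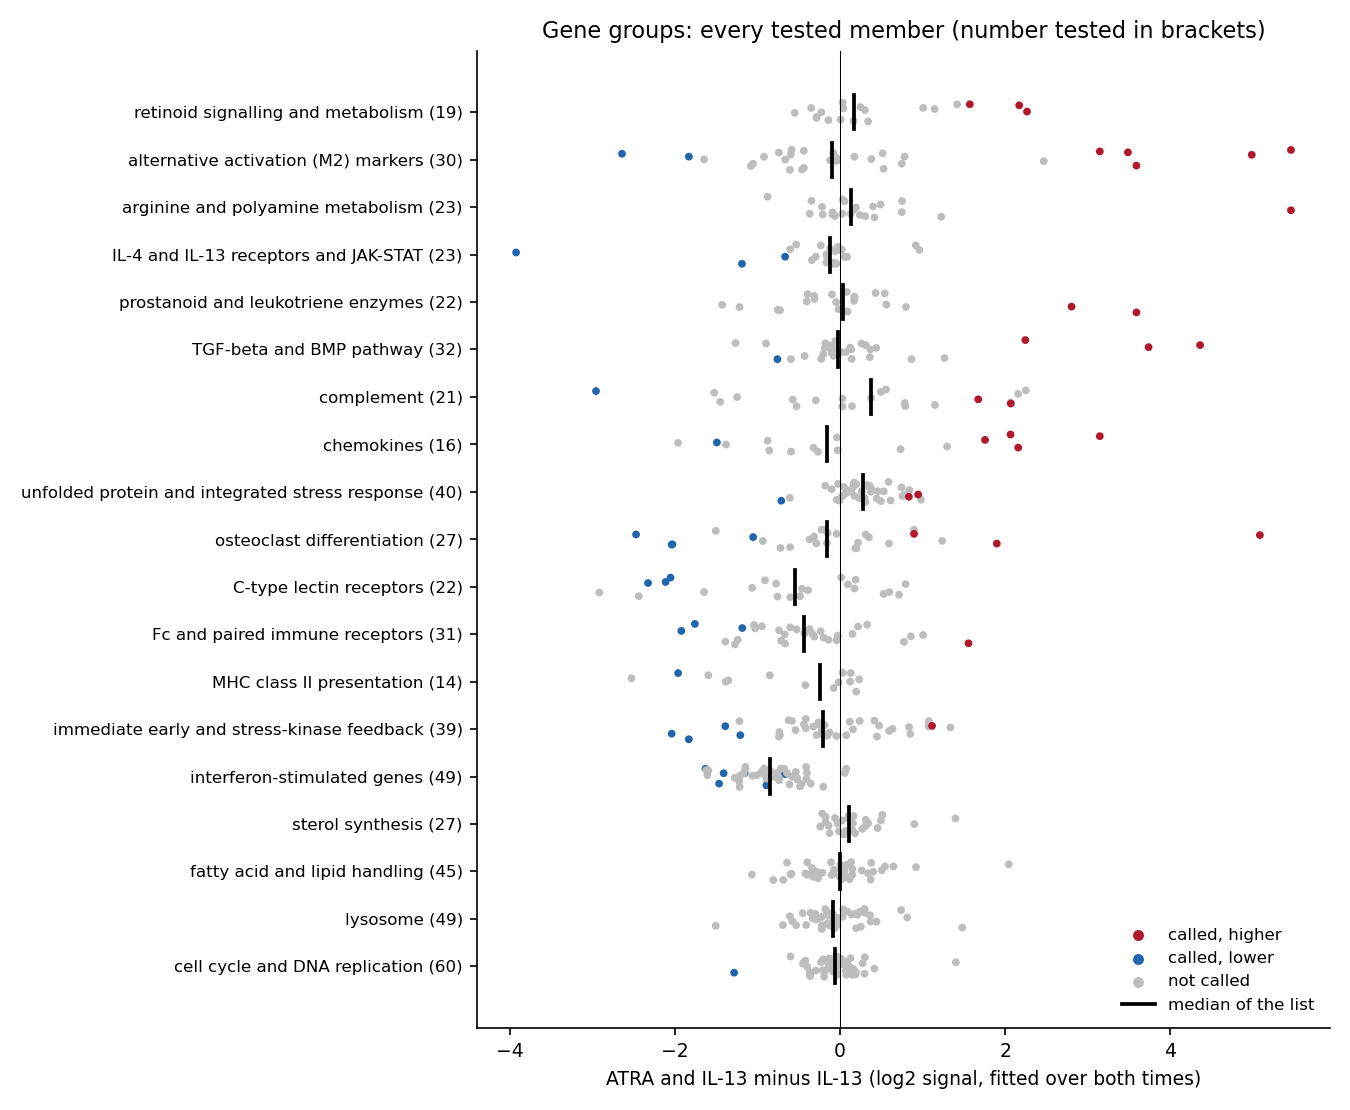
Fitted difference between both agents and IL-13 in log2 signal (x axis) for every tested gene of 19 gene groups (y axis, number tested in brackets), with called genes in red (higher) or blue (lower), other genes in grey and the group's median as a black bar. The interferon-stimulated genes lie almost wholly below 0 (median −0.84), the unfolded protein and integrated stress response mostly above 0 (median 0.28), and the M2 markers on both sides, from Il10 (−2.64) to Arg1 (5.46).

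The sizes of the differences were compared between the times. With no test, differences of at least 2-fold were found at 12 h for 381 genes in the direction of a rise (2.47% of those tested) and for 401 in that of a fall (2.59%). The numbers at 24 h were 782 (5.06%) and 681 (4.41%). The SD of the difference over all genes was 0.546 at 12 h and 0.689 at 24 h. Over the 15454 genes, which are no replicates of each other, the 2 sets of differences had a Pearson correlation of 0.552 and a Spearman correlation of 0.453. Of the called genes 117 of 178 that rose and 183 of 236 that fell differed more at 24 h. The same share over all genes was not taken, and the spread over all genes was also wider at 24 h. Time cannot be told apart from slide. The 75th percentiles of IL-13 and both agents were 713 and 508 at 24 h, against 431 and 445 at 12 h. The part of these in the larger differences at 24 h was not tested.

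Among single genes, the NADPH oxidase maturation factor Duoxa1 was 2.64 with IL-13 and 7.58 with both agents at 12 h, but 2.44 and 3.28 at 24 h. Aste1 was 8.30 with IL-13 and 1.18 with both agents at 12 h, and 2.98 and 2.81 at 24 h. At 24 h Tmem44 was 8.14 with IL-13 and 2.83 with both agents, against 3.70 and 3.63 at 12 h, and the ETS factor Etv4 was 8.45 and 4.37, against 4.41 and 4.55. Each of these rests on 1 array that stands apart from the other 3 of its gene. The caveolin Cav1 (−2.70 and −5.28, adjusted p = 0.0506, limma) and the Langerhans cell lectin Cd207 (−1.96 and −3.87, 0.0693) were lower at both times without passing.

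Whether the change made by ATRA, taken over cells with and without IL-13 together, differed between 12 h and 24 h was tested. The model leaves 1 residual degree of freedom and does not test the difference between both agents and IL-13 by itself. It called 0 genes (0%), the smallest adjusted p was 0.514, and 1454 genes had an unadjusted p under 0.05 by limma. With so little residual information this does not show that the times were alike.

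Many of the genes that rose or fell also did so when ATRA was given without IL-13. Against control 283 genes were called for ATRA alone (1.83%), and 199 of these were called with the same sign here, which is 70.3% of that list and 48.1% of the 414, with 0 of opposite sign. These comparisons share no array, though 1 fit gave the error of both. Of the 15 largest rises among genes with a symbol other than a clone or transcript name 11 were called for ATRA alone, and of the 15 such falls 4 were. These counts depend on the filter on dim probes. Among the falls, Neb, Pcsk5, Slc4a4, Smim5 and Il13ra2 passed it through the IL-13 arrays alone, so a fall with ATRA alone could hardly be measured. Among the rises, Mpdz, Pax9 and Reln passed it through the arrays of both agents alone. The 2 counts are therefore not to be compared. The test of whether the change made by ATRA differed with IL-13 called 3 genes (0.0194%, limma), with 566 at an unadjusted p under 0.05. Each of the 3 was well above background in 1 treatment only and passed the filter on dim probes through it, so the other levels are background readings, and with the filter for all 8 arrays 0 genes were called. Mpdz, a scaffold protein with many PDZ domains, was 8.0 and 7.36 with both agents and not well above background in any other treatment, at least 23.5-fold above IL-13 (adjusted p = 0.00297). The transcription factor Pax9 was 7.04 and 7.96 with both agents and also not above background elsewhere (at least 20.7-fold, 0.00304). The transcript 1700025L06Rik was 5.48 and 4.76 with IL-13 and not above background elsewhere (at least 3.63-fold lower, 0.00304).

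The signal of Mpdz depended on the probe. The probe used starts at base 6257 of its transcript and lies at chr4:80925602-80925661 on the minus strand of mm9. A second probe starts at base 6083 of the same transcript and spans an intron, since its 60 bases cover 892 bases of the genome at chr4:80927707-80928598, and it was well above background on 0 of 8 arrays, with differences of −0.15 and 0.17. Another probe gave −0.13 and −0.81, also with 0 of 8. The first pair is shown since the 2 neighbouring stretches of 1 transcript gave different results:
Mpdz probe at base 6257: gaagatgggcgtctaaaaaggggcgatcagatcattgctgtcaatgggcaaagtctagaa
Mpdz probe at base 6083: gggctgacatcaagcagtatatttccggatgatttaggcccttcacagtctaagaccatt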

How the data were processed

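RNA of 8 RAW264.7 samples was labelled with Cy3 and hybridised to 1-colour Agilent mouse arrays. The deposited intensities are processed signals that the scanner software, Agilent Feature Extraction 10.7.1.1, corrected for background by spatial and multiplicative detrending, per the file headers, with a flag per spot for signal well above background. The authors' deposited log2 values of the same arrays have 1 shared distribution, and the method behind it is not given in the sources used here. Probe coordinates are those of mm9, per the file headers.

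Control spots and outlier spots were left out, spots of a probe were averaged, and log2 intensity minus each array's 75th percentile, with the mean of the 8 percentiles added back, was used. A probe was kept if it was well above background on all arrays of at least 1 treatment, which left 24040 of 41174 probes, and the brightest kept probe stood for its gene (15454 genes). The fit used limma 3.58.1 in R 4.3.3 over all 8 arrays with treatment and time as terms and 3 residual degrees of freedom, with Benjamini-Hochberg adjustment over all genes and a threshold of 0.05. Time is both the slide and the pairing, since same-numbered arrays share both. Every adjusted p in the text comes from limma. A fold written as "at least" sets the brighter group's mean against, for each array of the dimmer group, the higher of the lowest signal well above background and the probe's own signal. The procedure was tested on simulated data. Probes were named through accessions, symbols or synonyms in the RefSeq table where they matched (27668 by accession, 5589 by symbol and 471 by synonym), and otherwise by the file's name.

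Named are, among genes with a symbol other than a clone, predicted gene or transcript name, the 15 called genes with the largest difference in each direction and the 10 largest differences each way at each time, and also called members of 52 gene lists, and Arg1, Tgm2 and Il10. Uncalled members are named to describe a list. The members and lists were chosen with earlier results of these data known. Alternatives were other normalizations, background corrections, filters, probe summaries, blocks and variance settings, and leaving out each array in turn.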

Additional observations from a re-analysis of the deposited data

Results flagged for a closer look

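The limma test of the difference between the ATRA effects with and without IL-13 called 3 genes. The difference of the effects was 6.59 ± 0.29 log2 units for Mpdz (adjusted p = 0.0209), 5.49 ± 0.32 for Pax9 (0.0332) and −4.24 ± 0.23 for 1700025L06Rik (0.031). Each was well above background in 1 treatment only, through which it passed the filter on dim probes. In control cells and with ATRA alone none was above background, so the contrast sets a measured change against background readings and the sizes are not bounds. None of these calls was made without the filter on dim probes, with the filter for all 8 arrays, or with the trend and robust settings.

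The difference between both agents and IL-13 was at least 2-fold in opposite directions at 12 h and 24 h for 27 genes, 12 lower and then higher and 15 higher and then lower. This was not tested for these 2 treatments by themselves. The test of ATRA by time, which takes cells with and without IL-13 together, called 0 genes. Of these, 8 were well above background on all 4 arrays, among them the heme oxygenase Hmox1, which was 11.28 with IL-13 and 12.69 with both agents at 12 h and 11.08 and 9.91 at 24 h. The serotonin receptor Htr1f was 6.67 and 4.04 at 12 h and 3.89 and 5.62 at 24 h.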

How the results depend on the processing

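Of 114 called genes that were chosen to be named, 113 kept their direction in every alternative, including those that leave out an array. The exception was Pcsk5, at 1.89 (adjusted p = 0.728, limma) without the filter on dim probes, where another of its probes was brighter. Some of the genes described above lost their calls in every refit that left out an array. They were Ccl6, Cxcl16, Irf8, Dusp6, Gadd45g, P4ha2, Id2, Stat2, Ifi204, Atf6 and Ccng2. The 414 calls became 7 without that filter (8 when limma was fitted to the 4 compared arrays alone), 836 with the trend and robust settings, and 253 when at least 2-fold differences at both times were also asked for, a choice made after seeing the data. Leaving out 1 array gave 16 to 553 calls, and an arm left with 1 array is then assumed to vary like the others. Other settings gave 362 to 477. The share of the calls that rose was 43%, and it was 85.7% without the filter, 87.5% with 4 arrays and 93.8% without the 24 h array of both agents. Without the replicate block, that is without the time term, 346 genes were called, and 448 with time as a random block. The 3 genes whose ATRA effect differed with IL-13 became 0 without the filter, with the filter for all 8 arrays and with the trend and robust settings, and 0 to 8 without 1 array. The test of ATRA by time, with 0 calls, gave 261 after normexp background correction and 45 with the trend and robust settings. Differences of at least 2-fold at both times numbered 426, and 162 after normexp, 688 without the filter and 241 with the filter for all 8 arrays. With 2 arrays a treatment the precision is limited by their number, and differences of genes near background are limited by the signal over background. The cause of these changes was not tested.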

Other observations

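Several genes outside the groups described above were called. Cp, which encodes the copper carrier ceruloplasmin, rose by 2.84 ± 0.29 (adjusted p = 0.0204, limma), the death receptor Fas fell by 1.54 (0.0355) and the BH3-only protein Bmf, which promotes apoptosis, fell by 2.15 (0.0314). Bmf rests on 1 of 3 probes, since the others gave −0.24 and −0.01 at 12 h and −0.59 and −0.95 at 24 h, and with the mean over its probes it fell short of a call (−1.01, adjusted p = 0.0544). Without the 24 h array of both agents the adjusted p was 0.0952 for Cp, 0.167 for Fas and 0.172 for Bmf. Of 32 genes of the BCL2 family and cell death 0 rose and 2 fell (6.25% called), with a median of −0.17. Of 51 solute carriers 3 rose and 1 fell (7.84%), with 36 higher in sign and a median of 0.17. Of 15 coagulation genes 0 rose and 1 fell (6.67%), and the median was −0.44. Over all genes 2.68% were called and 47.4% were higher in sign. The few calls of the cell death and coagulation lists therefore describe single genes only.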
